A study of Oryza sativa with 48 samples.

Results

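The SAPK kinases, named for stress and abscisic acid activated protein kinases, are the rice members of the SnRK2 family. Their transcripts were followed in roots and 2nd leaves of seedlings before and during exposure to NaCl. The members were taken by name, as the 10 identifiers of OsSAPK1 to OsSAPK10 among 35667 in the count table. The rule uses no measured value, but earlier results of these data were known when the members were chosen. OsSAPK1 is Os03g0390200, OsSAPK2 is Os07g0622000, OsSAPK3 is Os10g0564500, OsSAPK4 is Os01g0869900 and OsSAPK5 is Os04g0691100. OsSAPK6 is Os02g0551100, OsSAPK7 is Os04g0432000, OsSAPK8 is Os03g0764800, OsSAPK9 is Os12g0586100 and OsSAPK10 is Os03g0610900. These identifiers place OsSAPK1, OsSAPK8 and OsSAPK10 on chromosome 3, OsSAPK5 and OsSAPK7 on chromosome 4, and the others on chromosomes 1, 2, 7, 10 and 12. The table gives no positions, and the RefSeq gene table of the rice assembly ASM3414082v1 lists all 10 names on the same chromosomes.

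The study set the responses of a wild type and of a genotype labelled aoc to salt side by side, and its title names jasmonate signalling next to the tolerance of salt. The wild type was Kitaake, a japonica rice, called WT here. Neither the parent line of aoc nor how it was made is given in the labels; AOC is the usual abbreviation of allene oxide cyclase, an enzyme of jasmonate synthesis. Seedlings of both genotypes spent 11 days in hydroponics at 28 °C with a photoperiod of 12 h. Root and 2nd leaf were taken without NaCl (0 h) and after 1, 6 and 72 h in 100 mM NaCl. Each of the 16 groups had 3 libraries, each from 3 plants, which gives 48 libraries. No untreated plants of the later hours were among the samples, so a change from 0 h joins the effect of NaCl with those of age and hour of day, which cannot be told apart. Root RNA and leaf RNA were extracted with different kits, so tissue and kit cannot be told apart either.

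SnRK2 kinases carry osmotic stress and abscisic acid signals. In the abscisic acid pathway, receptors of the PYR/PYL/RCAR family bind the hormone and then hold clade A protein phosphatases 2C, which otherwise keep the kinases dephosphorylated and inactive, and the released kinases phosphorylate transcription factors of the group A bZIP class and ion channels. All SAPK proteins are activated by hyperosmotic stress in rice, and OsSAPK8, OsSAPK9 and OsSAPK10, which form subclass III, are activated by abscisic acid as well. OsSAPK1, OsSAPK2 and OsSAPK3 form subclass II, and OsSAPK4 to OsSAPK7 form subclass I. Activation takes place on the protein, so a transcript level is not a measure of kinase activity.

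Root libraries held 28.6 M to 71.7 M counts, and leaf libraries 29.9 M to 41 M. Levels are given in CPM, counts relative to the library's total after scaling with TMM factors over the 48 libraries. The lowest count of a member in a library was 54, for OsSAPK7 in leaf, and all 10 members passed the filter on low counts in every fit. Identifiers used as leaf markers summed to 19800 to 108000 CPM in leaf and at most 4890 CPM in root, and those used as root markers to at least 2150 CPM in root and at most 161 CPM in leaf. Of the 4 root markers, 2 carried that sum, and the other 2 had root medians of 0.602 and 0.224 CPM. The leaf marker Os01g0600900 overlapped between the tissues, at 148 to 9460 CPM in leaf and 32.6 to 2110 CPM in root. The identifier used for allene oxide cyclase was lower in all 3 aoc libraries than in all 3 WT libraries of every tissue and hour. In root its level was 111 to 245 CPM in WT and 36.3 to 48.2 CPM in aoc, and in leaf 37.7 to 137 CPM and 23.5 to 67 CPM. Replicates were farthest apart in leaf at 72 h, where the median SD of log2 CPM was 0.259 in WT and 0.272 in aoc, against 0.115 to 0.178 in the other groups. In 2 leaf libraries, WT 1 h replicate 3 and aoc 0 h replicate 3, the summed level of dehydrins and LEA3, transcripts that rise in cells short of water, was 2019 and 1138 CPM, against at most 5.87 and 3.12 CPM in the other libraries of their groups. With both left out, the 10 leaf calls against 0 h that involve their groups (WT at 1 h, and aoc at 1, 6 and 72 h) were all kept. In root, aoc 0 h replicate 3 had 243 CPM of these transcripts, against 5.43 and 14.9 CPM in the other libraries of its group. Without it, OsSAPK5 and OsSAPK9 in aoc roots at 1 h were no longer called (edgeR adjusted p = 0.107 and 0.0576), OsSAPK1 at 6 h was (0.45, edgeR adjusted p = 0.0441), and the other 10 of the 12 calls of aoc roots against 0 h were kept.

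A transcript was called where edgeR's quasi-likelihood test gave a Benjamini-Hochberg adjusted p under 0.05 over all tested identifiers of that comparison. Each ± after a log2 fold change is its standard error, and each ± after a level is the SD of 3 libraries. Transcript lengths were not used here, so levels of different members are not compared. In a whole tissue, fewer cells of a type and less RNA per cell cannot be told apart. The labels do not say whether the 3 libraries of a group came from separate cultures, so the p-values measure the spread between these libraries.

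In WT roots, SAPK members were called at different hours in NaCl. OsSAPK2 rose most at 1 h and was back near its starting level at 6 h, while OsSAPK9 and OsSAPK6 were highest at 6 h, OsSAPK10 was up at all 3 hours, and 4 members (OsSAPK3, OsSAPK4, OsSAPK5 and OsSAPK7) had no call by edgeR at any hour. At 1 h, 3 of 10 members were called, all higher, against 34.1% of all tested identifiers. At 6 h, 3 were higher and 1 lower, against 24.9%. By 72 h OsSAPK10 alone was called, against 18.9%. Leaf markers moved with that hour: they summed to 1120, 4396 and 4888 CPM in WT roots at 72 h and to 606 to 1289 CPM at 0 h, with 3 of 5 called higher, and their part in the results of 72 h was not tested. Over the members, the median log2 fold change was 0.20 at 1 h, 0.22 at 6 h and -0.01 at 72 h, beside medians of -0.03, 0.01 and 0.03 over all tested identifiers.

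**Figure D1:**
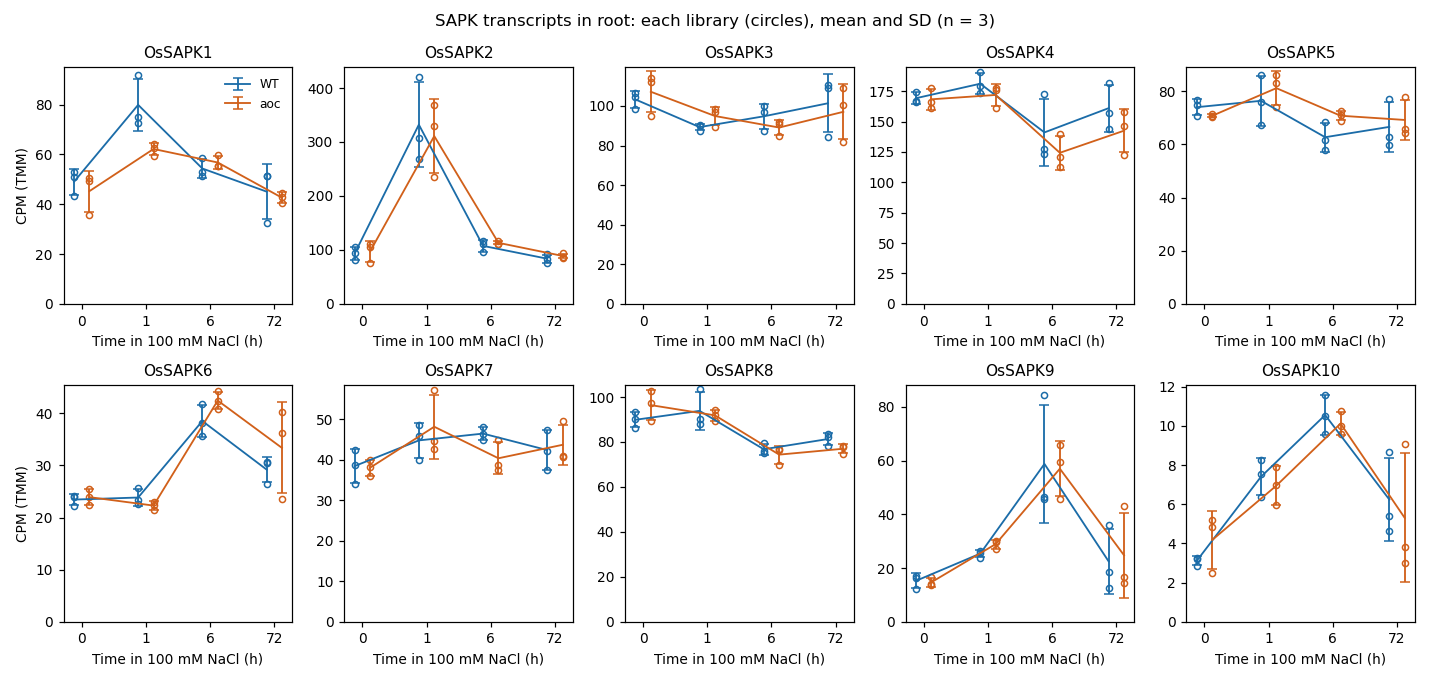
Levels of the 10 SAPK transcripts in root, in CPM, against time in 100 mM NaCl, with a circle per library and the mean and SD of 3 libraries for WT and aoc. OsSAPK2 peaked at 1 h in both genotypes, at 268 to 421 CPM in WT, and OsSAPK9 at 6 h, at 45.6 to 84.2 CPM in WT.

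Among the subclass II kinases, OsSAPK2 is known from mutants to act in abscisic acid responses and in tolerance of drought and salt. Its level in WT roots was 80.9, 94.1 and 105 CPM at 0 h, 421, 268 and 307 CPM at 1 h, 95.3, 116 and 111 CPM at 6 h, and 83.1, 76.4 and 91.6 CPM at 72 h. All 3 libraries at 1 h lay above every other WT root library. The rise at 1 h was 3.67-fold, a log2 fold change of 1.88 ± 0.18 (adjusted p = 2.36e-07 in edgeR). From 1 h to 6 h it fell by 1.63 on the log2 scale (edgeR adjusted p = 1.74e-06). OsSAPK1, which shares functions with OsSAPK2 in salt tolerance, had 43.2, 53 and 50.8 CPM at 0 h and 72.6, 75.1 and 91.9 CPM at 1 h. These groups did not overlap, and the log2 fold change was 0.74 ± 0.15 (edgeR adjusted p = 0.000585). It was at 51.5, 53 and 58.5 CPM at 6 h, inside and just above the range at 0 h. OsSAPK3, the third kinase of the subclass, stayed between 84.4 and 111 CPM in all 12 WT root libraries and was called at no hour.

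The subclass III kinases split. OsSAPK9 was highest at 6 h in WT roots, and rose from 12.1, 16.4 and 17.2 CPM at 0 h to 25.7, 26.5 and 23.9 CPM at 1 h and 84.2, 45.6 and 46.4 CPM at 6 h. The groups were stacked without overlap, although the step at 1 h was not called (log2 fold change 0.77 ± 0.37, 95% interval -0.01 to 1.55, edgeR adjusted p = 0.120). That step was called with the compared groups alone (0.79, edgeR adjusted p = 0.00529) and without root aoc 72 h replicate 2 (edgeR adjusted p = 0.0477). At 6 h the log2 fold change was 1.99 ± 0.38 (edgeR adjusted p = 0.00106). At 72 h the libraries were far apart, at 18.6, 36.1 and 12.7 CPM, and the difference from 0 h was not called (0.60 ± 0.37, edgeR adjusted p = 0.266). OsSAPK10 is known to phosphorylate bZIP72, a factor reported to bind the promoter of allene oxide cyclase in rice. It had 3.26, 3.22 and 2.86 CPM at 0 h, 7.55, 6.38 and 8.28 CPM at 1 h, 11.6, 9.59 and 10.5 CPM at 6 h, and 5.41, 8.67 and 4.64 CPM at 72 h. Every later library lay above those of 0 h. The log2 fold changes were 1.29 ± 0.33 at 1 h (edgeR adjusted p = 0.00512), 1.80 ± 0.33 at 6 h (edgeR adjusted p = 0.00081) and 1.04 ± 0.33 at 72 h (edgeR adjusted p = 0.0343). Its call at 72 h was lost without any 1 of the 3 WT 0 h libraries (edgeR adjusted p = 0.0633, 0.0864 and 0.114) and without WT 72 h replicate 2 (0.73 on the log2 scale, edgeR adjusted p = 0.183).

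OsSAPK8, known to activate the guard cell anion channel OsSLAC1, moved little and downward. It had 86.4, 90 and 93.1 CPM at 0 h and 79.4, 75.9 and 75 CPM at 6 h in WT roots, a fall of 0.19 ± 0.07 on the log2 scale without overlap between the groups. The call at 6 h was close to the threshold (edgeR adjusted p = 0.0437). It was lost in 11 of the 24 fits that left out 1 library, among them those without WT 0 h replicate 2 or 3 or WT 6 h replicate 2 or 3, with adjusted p up to 0.145 in edgeR.

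Of the subclass I kinases, OsSAPK6 was called in WT roots. Its levels were 24, 24.1 and 22.2 CPM at 0 h, 25.7, 22.5 and 23.3 CPM at 1 h, 35.7, 38.1 and 41.7 CPM at 6 h, and 26.5, 30.5 and 30.7 CPM at 72 h. The 3 libraries at 6 h stood above all the others. The log2 fold change at 6 h was 0.76 ± 0.14 (edgeR adjusted p = 0.000662), and that at 72 h, with groups that did not overlap, was 0.36 ± 0.14 and not called (edgeR adjusted p = 0.0726). OsSAPK4, reported to affect salt tolerance of rice, OsSAPK5 and OsSAPK7 had log2 fold changes between -0.22 and 0.32 at the 3 hours in WT roots and no call by edgeR. The 0.32 of OsSAPK7 at 6 h (edgeR adjusted p = 0.0522) was called by DESeq2 (adjusted p = 0.0429) and when edgeR was fitted to the compared groups only (adjusted p = 0.0433).

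In aoc roots the same kinases led. At 1 h, 5 of 10 members were called, all higher, against 34.7% of all tested identifiers, and at 6 h 3 were higher and 2 lower, against 33.3%. At 72 h 1 was higher and 1 lower, against 19.8%. The members' median log2 fold changes were 0.33, 0.20 and -0.03 at the 3 hours, beside -0.04, 0.02 and 0.01 over all tested identifiers. OsSAPK1 and OsSAPK2 were called higher at 1 h in both genotypes, and OsSAPK6, OsSAPK9 and OsSAPK10 higher and OsSAPK8 lower at 6 h in both. No member was called in opposite directions in the 2 genotypes.

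OsSAPK2 went from 75.6, 111 and 105 CPM at 0 h to 369, 329 and 234 CPM at 1 h in aoc roots, with no overlap and a log2 fold change of 1.75 ± 0.18 (adjusted p = 5.85e-07 in edgeR). At 6 h it was at 111, 117 and 111 CPM, a fall of 1.48 ± 0.18 from 1 h on the log2 scale (edgeR adjusted p = 6.14e-06). All 3 libraries of 1 h were above all other libraries of the tissue in aoc as in WT. OsSAPK1 had 35.7, 49.3 and 50.7 CPM at 0 h and 62.8, 59.5 and 64.2 CPM at 1 h. Its log2 fold change was 0.53 ± 0.15 (adjusted p = 0.00849 in edgeR), which without aoc 0 h replicate 1, the lowest library, was 0.38 and not called (edgeR adjusted p = 0.0565).

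OsSAPK9 had 13.6, 13.9 and 16.7 CPM at 0 h, 30, 29.8 and 27 CPM at 1 h and 65.8, 45.8 and 59.3 CPM at 6 h in aoc roots. As in WT the groups were stacked without overlap. The log2 fold change was 1.04 ± 0.37 at 1 h (edgeR adjusted p = 0.0375) and 2.00 ± 0.38 at 6 h (edgeR adjusted p = 0.000729). The call at 1 h was lost without any 1 of the 6 libraries of aoc at 0 h and 1 h, at edgeR adjusted p up to 0.0996. OsSAPK10 had 2.47, 4.84 and 5.21 CPM at 0 h, 6.99, 5.94 and 7.92 CPM at 1 h and 9.59, 10 and 10.8 CPM at 6 h. Its log2 fold change at 6 h was 1.32 ± 0.33 (edgeR adjusted p = 0.00467). The difference at 1 h, 0.80 ± 0.33 with an interval of 0.12 to 1.48, was not called by edgeR (adjusted p = 0.0649) and was called by DESeq2 (adjusted p = 0.0437).

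OsSAPK6 rose from 23.9, 25.4 and 22.4 CPM at 0 h to 42.3, 44.2 and 40.8 CPM at 6 h in aoc roots, a log2 fold change of 0.87 ± 0.14 without overlap (edgeR adjusted p = 0.000145). At 72 h it was at 23.6, 40.3 and 36.3 CPM, so that replicate 1 fell inside the range of 0 h. The log2 fold change there was 0.52 ± 0.14 (edgeR adjusted p = 0.0135), and it was not called without aoc 72 h replicate 2 (0.34, edgeR adjusted p = 0.0996) or replicate 3 (0.46, edgeR adjusted p = 0.0562). With the compared groups alone it was not called either (edgeR adjusted p = 0.154). OsSAPK8 fell from 89.5, 103 and 97.1 CPM to 76.8, 69.7 and 76.6 CPM at 6 h and to 78, 74.6 and 78.4 CPM at 72 h. Neither later group overlapped with 0 h, and the log2 fold changes were -0.33 ± 0.07 (edgeR adjusted p = 0.000942) and -0.29 ± 0.07 (edgeR adjusted p = 0.00547), the second not called with the compared groups alone (edgeR adjusted p = 0.0704).

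A further 3 calls in aoc roots were small. OsSAPK7 rose at 1 h by 0.40 ± 0.12 on the log2 scale, from 36, 38.3 and 39.8 CPM to 44.5, 42.7 and 57.2 CPM (edgeR adjusted p = 0.0104), and without aoc 1 h replicate 3 the value was 0.27 and not called (edgeR adjusted p = 0.0756). OsSAPK5 rose at 1 h by 0.26 ± 0.10, from 70.3, 71.4 and 70.5 CPM to 86.2, 83.1 and 74.1 CPM (edgeR adjusted p = 0.0495). This call was lost in 17 of the 24 fits that left out 1 library, those without aoc 0 h replicates 1, 2 or 3 or aoc 1 h replicates 1 or 2 among them (edgeR adjusted p up to 0.164). OsSAPK4 fell at 6 h by 0.39 ± 0.12, from 161, 178 and 166 CPM to 113, 121 and 140 CPM (edgeR adjusted p = 0.0172), a call lost without aoc 0 h replicate 2 or aoc 6 h replicate 1 or 2 (edgeR adjusted p = 0.0687, 0.0821 and 0.0540).

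**Figure D2:**
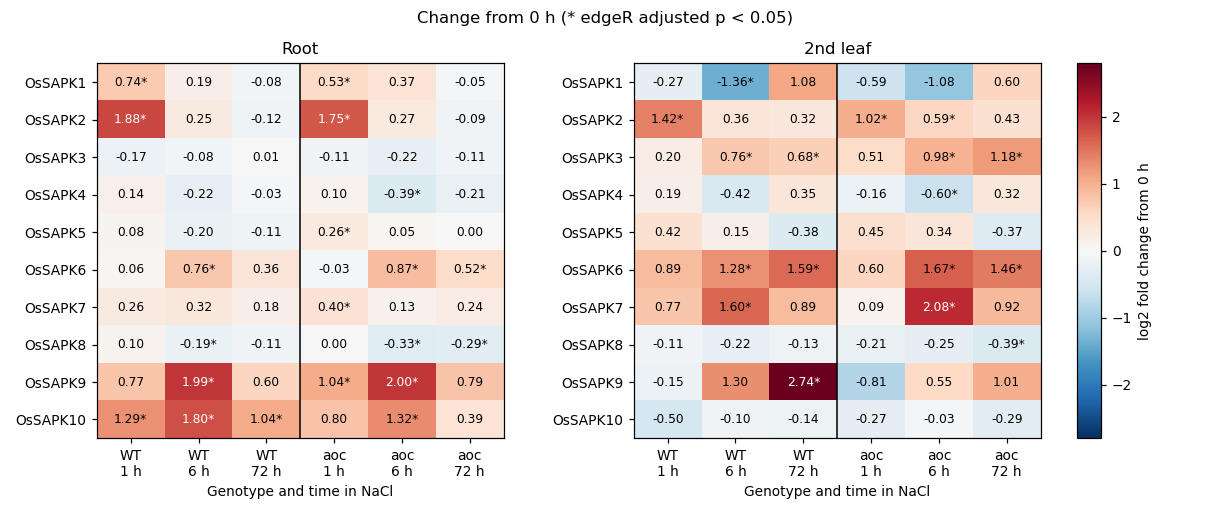
Log2 fold change from 0 h of each SAPK transcript at 1, 6 and 72 h in root and 2nd leaf of WT and aoc; colour and number give the same value, and an asterisk marks an edgeR adjusted p under 0.05. OsSAPK2 stood out at 1 h in both tissues, OsSAPK9 and OsSAPK10 at 6 h in root, and OsSAPK6 and OsSAPK7 at 6 h in leaf.

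In the 2nd leaf, OsSAPK2 was higher at 1 h in both genotypes. At 6 h OsSAPK3, OsSAPK6 and OsSAPK7 rose in both, and OsSAPK2 in aoc. OsSAPK10 was called at no hour in either genotype. In WT leaves 1 of 10 members was called at 1 h, against 1.28% of all tested identifiers, 3 were higher and 1 lower at 6 h, against 29.2%, and 3 were higher at 72 h, against 28.6%. In aoc leaves 1 was higher at 1 h, against 0.654%, 4 higher and 1 lower at 6 h, against 35.6%, and 2 higher and 1 lower at 72 h, against 30.5%. The members' median log2 fold change at 1, 6 and 72 h was 0.19, 0.26 and 0.51 in WT and -0.03, 0.45 and 0.52 in aoc, beside medians between -0.01 and 0.04 over all tested identifiers.

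**Figure D3:**
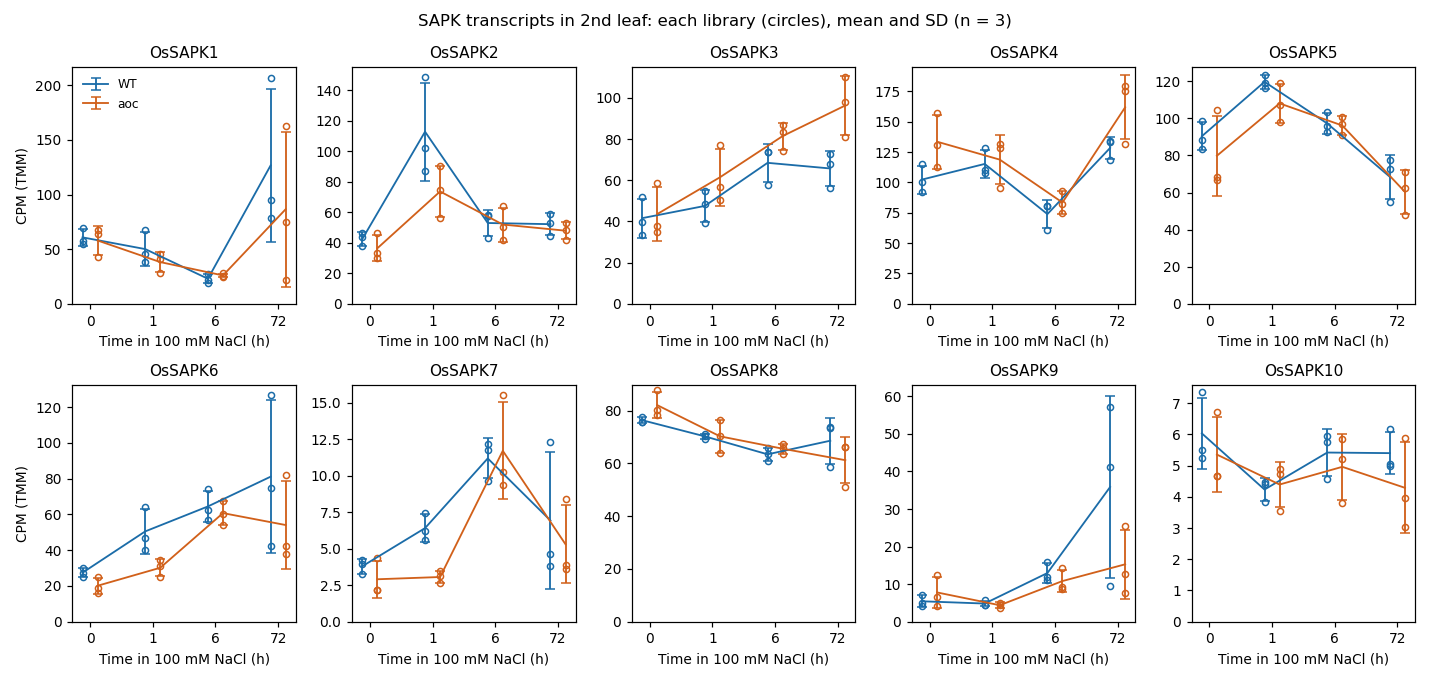
Levels of the 10 SAPK transcripts in the 2nd leaf, in CPM, against time in 100 mM NaCl, with a circle per library and the mean and SD of 3 libraries for WT and aoc. Libraries of 72 h were spread most for OsSAPK1 (21.8 to 207 CPM), OsSAPK6 and OsSAPK9.

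OsSAPK2 had 43.8, 46.2 and 37.7 CPM at 0 h and 87.2, 149 and 103 CPM at 1 h in WT leaves, and 58, 57.7 and 43.3 CPM at 6 h. The libraries of 1 h lay above all others of WT leaf, and the log2 fold change was 1.42 ± 0.23 (edgeR adjusted p = 0.00441). In aoc leaves it had 33.4, 29.8 and 46.3 CPM at 0 h and 74.6, 90.1 and 56.4 CPM at 1 h, again without overlap, a log2 fold change of 1.02 ± 0.23 (adjusted p = 0.0420 in edgeR). The call in aoc was lost in 13 of the 24 fits that left out 1 library, 5 of them without a library of aoc at 0 h (replicate 1 or 2) or at 1 h (any of the 3), with edgeR adjusted p up to 0.245. At 6 h in aoc, with 64, 50.3 and 41.9 CPM, the groups overlapped, and the called log2 fold change of 0.59 ± 0.22 (adjusted p = 0.0486 in edgeR) was likewise lost in 13 of 24 such fits (edgeR adjusted p up to 0.210, without aoc 6 h replicate 1) and with DESeq2 (adjusted p = 0.0649).

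OsSAPK3 was called higher at 6 and 72 h in leaf, unlike in root. In WT leaves it had 51.9, 39.7 and 33.3 CPM at 0 h, 54.9, 48.7 and 39.1 CPM at 1 h, 57.8, 73.7 and 74 CPM at 6 h and 68.1, 72.9 and 56.2 CPM at 72 h. All 6 libraries of 6 and 72 h were above those of 0 h, with log2 fold changes of 0.76 ± 0.22 (edgeR adjusted p = 0.0125) and 0.68 ± 0.22 (edgeR adjusted p = 0.0262). In aoc leaves it had 58.5, 34.7 and 37.6 CPM at 0 h and 50.4 to 77.1 CPM at 1 h, groups that overlapped and gave no call. It had 74.1, 83.5 and 86.9 CPM at 6 h and 81.2, 110 and 97.9 CPM at 72 h. The log2 fold changes at 6 and 72 h were 0.98 ± 0.22 (edgeR adjusted p = 0.00187) and 1.18 ± 0.22 (edgeR adjusted p = 0.000925). Both calls in aoc were kept in every fit without 1 library. In WT that of 6 h was lost without WT 0 h replicate 3 (edgeR adjusted p = 0.0739), and that of 72 h without WT 0 h replicate 2 or 3 or WT 72 h replicate 2 (edgeR adjusted p = 0.0652, 0.123 and 0.0854).

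OsSAPK1 moved the other way in leaf before it spread out. It had 55.1, 69.8 and 57.6 CPM at 0 h and 19.4, 27.3 and 22.2 CPM at 6 h in WT leaves, which did not overlap, a fall of 1.36 ± 0.47 on the log2 scale (edgeR adjusted p = 0.0361). Without any 1 of these 6 libraries the call was lost (log2 fold change -1.49 to -1.24, edgeR adjusted p = 0.0557 to 0.118). In aoc leaves the values were 42.5, 67.2 and 64.3 CPM at 0 h and 25.4, 24.7 and 27.9 CPM at 6 h, again without overlap, and the difference of -1.08 ± 0.47 was not called (edgeR adjusted p = 0.0804). With the 6 leaf libraries of 72 h left out of the fit the same difference passed (edgeR adjusted p = 0.00125). At 72 h it stood at 78.3, 95.1 and 207 CPM in WT and at 75.3, 21.8 and 163 CPM in aoc.

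Of the subclass I kinases in leaf, OsSAPK6 was called at 6 and 72 h and OsSAPK7 at 6 h, in both genotypes. OsSAPK6 had 30.1, 27 and 25.1 CPM at 0 h, 40.2, 46.9 and 64.4 CPM at 1 h, 62.2, 74.2 and 56.9 CPM at 6 h and 42.2, 74.5 and 127 CPM at 72 h in WT. All 9 libraries with NaCl were above all 3 without. The log2 fold change was 0.89 ± 0.32 at 1 h (not called, edgeR adjusted p = 0.211), 1.28 ± 0.33 at 6 h (edgeR adjusted p = 0.00641) and 1.59 ± 0.33 at 72 h (edgeR adjusted p = 0.00281). In aoc it had 19.1, 16.1 and 25.1 CPM at 0 h, 34.2, 31.3 and 25 CPM at 1 h, 60.5, 54.2 and 67.5 CPM at 6 h and 37.7, 42.2 and 82.3 CPM at 72 h. Here the libraries of 6 and 72 h lay above those of 0 h, and the log2 fold change was 1.67 ± 0.33 at 6 h (edgeR adjusted p = 0.000753) and 1.46 ± 0.33 at 72 h (edgeR adjusted p = 0.00343). With the compared groups alone, neither value of 72 h was called (edgeR adjusted p = 0.0518 in WT and 0.0588 in aoc). At 1 h in WT the value passed with the 72 h libraries left out (edgeR adjusted p = 0.0127), and it was 0.68 without the 2 leaf libraries of high dehydrin level (edgeR adjusted p = 0.501).

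OsSAPK7, at low levels in leaf, had 3.92, 3.25 and 4.23 CPM at 0 h, 7.43, 6.24 and 5.57 CPM at 1 h and 9.62, 12.1 and 11.8 CPM at 6 h in WT. In aoc it had 2.19, 2.19 and 4.35 CPM at 0 h, 2.62, 3.1 and 3.47 CPM at 1 h and 10.2, 9.39 and 15.5 CPM at 6 h. The libraries of 6 h stood above every earlier one in both genotypes. Its log2 fold change at 6 h was 1.60 ± 0.40 in WT (edgeR adjusted p = 0.00568) and 2.08 ± 0.41 in aoc (edgeR adjusted p = 0.00072), both kept in every fit without 1 library. At 72 h replicate 2 of each genotype, at 12.3 and 8.39 CPM, was above the other libraries, at 3.63 to 4.66 CPM, and neither difference from 0 h was called. Without the 2 leaf libraries of high dehydrin level, that in aoc was 1.33 and passed (edgeR adjusted p = 0.0409).

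OsSAPK4 had 92, 100 and 115 CPM at 0 h and 60.6, 80.2 and 80.8 CPM at 6 h in WT leaves, and 113, 157 and 131 CPM and 74.9, 82.2 and 93.2 CPM in aoc leaves. Neither pair of groups overlapped. The log2 fold change was -0.42 ± 0.17 in WT (not called, edgeR adjusted p = 0.0693) and -0.60 ± 0.17 in aoc (edgeR adjusted p = 0.00987). The call in aoc was lost without aoc 0 h replicate 2 or aoc 6 h replicate 1 (edgeR adjusted p = 0.0659 and 0.0504), and DESeq2 called the value in WT (adjusted p = 0.0425). OsSAPK5 was called at no hour against 0 h in leaf, with log2 fold changes between -0.38 and 0.45.

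Of subclass III in leaf, OsSAPK9 had 4.21, 4.89 and 7.23 CPM at 0 h, 4.42, 4.37 and 5.74 CPM at 1 h, 15.9, 11 and 12 CPM at 6 h and 9.45, 57.1 and 41.1 CPM at 72 h in WT. All libraries of 6 and 72 h exceeded those of 0 and 1 h. The log2 fold change was 1.30 ± 0.51 at 6 h (not called by edgeR, adjusted p = 0.0626, and called by DESeq2, adjusted p = 0.0411) and 2.74 ± 0.53 at 72 h (edgeR adjusted p = 0.00199). In aoc leaves it had 4.3, 6.68 and 12.4 CPM at 0 h, 14.3, 9.35 and 8.83 CPM at 6 h and 7.6, 12.8 and 25.5 CPM at 72 h. Those groups overlapped, and neither log2 fold change, 0.55 ± 0.50 and 1.01 ± 0.51, was called (edgeR adjusted p = 0.424 and 0.137, intervals -0.51 to 1.61 and -0.05 to 2.07). OsSAPK8 was called once, lower in aoc at 72 h, with 80.3, 87.7 and 78.2 CPM at 0 h and 66, 51.2 and 66.3 CPM at 72 h. Its log2 fold change was -0.39 ± 0.10 (adjusted p = 0.00946 in edgeR) and missed the threshold without aoc 72 h replicate 2 (-0.30, edgeR adjusted p = 0.0502). With the compared groups alone it was not called either (edgeR adjusted p = 0.137). OsSAPK10 ranged from 3.02 to 7.34 CPM over the 24 leaf libraries, with log2 fold changes from -0.50 to -0.03.

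Comparing each hour with the one before showed how the responses were shaped. In WT roots, from 1 h to 6 h, 2 members rose, OsSAPK6 and OsSAPK9, and 5 fell, against 36.4% of tested identifiers called. From 6 h to 72 h OsSAPK9 alone was called, lower by 1.39 ± 0.37 on the log2 scale (edgeR adjusted p = 0.0169), against 15.3%. In aoc roots 1 member rose and 3 fell from 1 h to 6 h, against 35.0%, and OsSAPK9 alone fell from 6 h to 72 h, by 1.21 ± 0.37 (edgeR adjusted p = 0.0478), against 9.27%. OsSAPK2 and OsSAPK8 fell and OsSAPK6 rose from 1 h to 6 h in both genotypes of root, and these 6 calls were kept in every alternative run. The fall of OsSAPK9 by 72 h was lost in WT without WT 6 h replicate 1 or WT 72 h replicate 1 or 3 (edgeR adjusted p = 0.0905, 0.0746 and 0.0753), and in aoc in 20 of 24 fits without 1 library (edgeR adjusted p up to 0.180). In both genotypes replicate 2 of 72 h was its highest library at that hour, at 36.1 CPM in WT and 43 CPM in aoc.

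Of the other falls in WT roots from 1 h to 6 h, OsSAPK1 had a log2 fold change of -0.55 ± 0.15 (adjusted p = 0.00606 in edgeR), OsSAPK4 of -0.36 ± 0.12 (edgeR adjusted p = 0.0260) and OsSAPK5 of -0.28 ± 0.10 (edgeR adjusted p = 0.0380). The last 2 were each lost in 4 of 24 fits without 1 library, at edgeR adjusted p up to 0.129 for OsSAPK4 (without WT 6 h replicate 2) and 0.181 for OsSAPK5 (without WT 1 h replicate 3). The rise of OsSAPK9, 1.22 ± 0.37, was lost without WT 1 h replicate 3 or WT 6 h replicate 1 (edgeR adjusted p = 0.0546 and 0.102). In aoc roots OsSAPK4 fell by 0.49 ± 0.12 on the log2 scale over the same hours (edgeR adjusted p = 0.00404).

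In WT leaves 1 member rose and 2 fell from 1 h to 6 h, against 26.9%, and 3 rose and 1 fell from 6 h to 72 h, against 30.3%. In aoc leaves 2 rose from 1 h to 6 h, against 27.6%, and 2 rose and 2 fell from 6 h to 72 h, against 23.0%. OsSAPK1 and OsSAPK4 rose and OsSAPK5 fell from 6 h to 72 h in both genotypes. For OsSAPK1 the log2 fold change was 2.45 ± 0.49 in WT (edgeR adjusted p = 0.00197) and 1.68 ± 0.48 in aoc (edgeR adjusted p = 0.0173). In aoc the groups overlapped through replicate 2 at 21.8 CPM, and the call was lost without aoc 72 h replicate 3 (0.83, edgeR adjusted p = 0.215) and without aoc 6 h replicate 1 or 2 (edgeR adjusted p = 0.0532 and 0.0595). For OsSAPK4 the log2 fold change was 0.77 ± 0.17 in WT (edgeR adjusted p = 0.00367) and 0.92 ± 0.17 in aoc (edgeR adjusted p = 0.00152), with no overlap of the groups in either. With the compared groups alone that in aoc was not called (edgeR adjusted p = 0.0695). For OsSAPK5 the log2 fold change was -0.54 ± 0.17 in WT (edgeR adjusted p = 0.0237) and -0.71 ± 0.17 in aoc (edgeR adjusted p = 0.007). The call in WT was lost without WT 6 h replicate 3 or WT 72 h replicate 3 (edgeR adjusted p = 0.0805 and 0.136). Neither call of OsSAPK5 was kept with the compared groups alone (edgeR adjusted p = 0.0815 in WT and 0.102 in aoc).

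The other leaf steps called by edgeR were those of OsSAPK2, OsSAPK4 and OsSAPK9 in WT and of OsSAPK6 and OsSAPK7 in aoc. OsSAPK2 fell by 1.06 ± 0.23 on the log2 scale from 1 h to 6 h in WT (edgeR adjusted p = 0.00229), and the step in aoc, -0.44 ± 0.22, was not called. OsSAPK7 rose by 2.00 ± 0.41 from 1 h to 6 h in aoc (edgeR adjusted p = 0.00165) and fell by 1.17 ± 0.40 by 72 h, a call that edgeR lost in 6 of 24 fits without 1 library (adjusted p up to 0.171, without aoc 72 h replicate 3). In WT its step from 1 h to 6 h, 0.84, was not called (edgeR adjusted p = 0.124). It was called with the compared groups alone (edgeR adjusted p = 0.00819). OsSAPK6 rose by 1.07 ± 0.32 from 1 h to 6 h in aoc (edgeR adjusted p = 0.0192) and missed the threshold without aoc 1 h replicate 2 or 3 or aoc 6 h replicate 3 (edgeR adjusted p = 0.0545, 0.0802 and 0.0572). OsSAPK4 fell by 0.61 ± 0.17 from 1 h to 6 h in WT (edgeR adjusted p = 0.0129), lost without WT 1 h replicate 2 or WT 6 h replicate 1 (edgeR adjusted p = 0.0686 and 0.0811). In aoc the step of OsSAPK4, -0.45, was not called by edgeR (adjusted p = 0.0582) and was called by DESeq2 (adjusted p = 0.0314). OsSAPK9 in WT rose by 1.46 ± 0.51 from 1 h to 6 h and by 1.44 ± 0.51 from 6 h to 72 h (edgeR adjusted p = 0.0423 and 0.0384). The first was lost in 8 of 24 fits without 1 library, among them each of the 6 that left out a library of the compared groups, and the second in 5 (edgeR adjusted p up to 0.128 and 0.168). With both leaf libraries of high dehydrin level left out, the first was not called either (edgeR adjusted p = 0.0633). In aoc the step of OsSAPK9 from 1 h to 6 h, 1.36, was not called by edgeR (adjusted p = 0.0570) and was called by DESeq2 (adjusted p = 0.0342).

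The comparison named in the study's design, aoc against WT, gave no call for any SAPK kinase. At the same tissue and hour, 0 of 40 tests in root and 0 of 40 in leaf passed edgeR's threshold, where 1 and 6 had an unadjusted p under 0.05, and DESeq2 called 0 and 0. For the unadjusted p no share over all tested identifiers was taken. The share of all tested identifiers called was 0.756% at 0 h, 3.50% at 1 h, 2.65% at 6 h and 3.24% at 72 h in root, and 0.679%, 4.54%, 0.489% and 2.88% in leaf. In root the estimates lay between -0.32 and 0.43 on the log2 scale, and their 95% intervals reached from -0.90 to 1.12. In leaf they lay between -1.23 and 0.55, with intervals from -2.29 to 1.57.

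**Figure D4:**
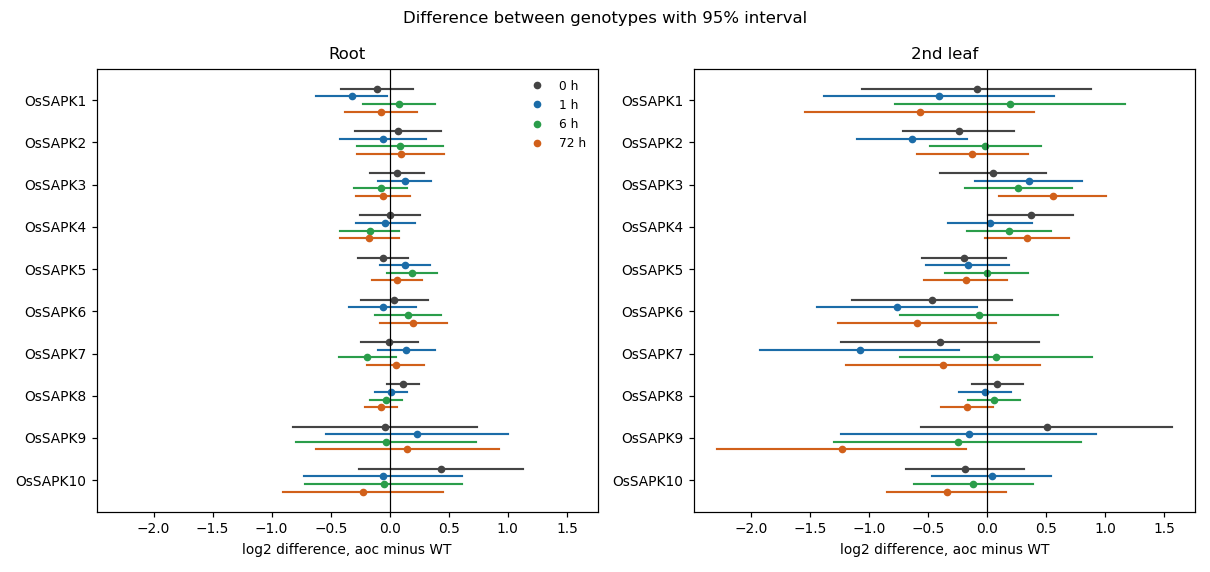
Log2 difference of each SAPK transcript between aoc and WT (aoc minus WT) at 0, 1, 6 and 72 h in root and 2nd leaf, with its 95% interval from the edgeR fit. No difference passed the adjusted threshold, and intervals were wider in leaf, where the estimates ran from -1.23 to 0.55, than for most members in root.

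Of the 6 leaf tests with an unadjusted p under 0.05, 1 was at 0 h, 3 at 1 h and 2 at 72 h. OsSAPK4 at 0 h differed by 0.37 ± 0.17 (interval 0.01 to 0.72, edgeR adjusted p = 0.442), and its groups overlapped. OsSAPK7 at 1 h had 7.43, 6.24 and 5.57 CPM in WT and 2.62, 3.1 and 3.47 CPM in aoc, without overlap, a log2 difference of -1.08 ± 0.40 (interval -1.92 to -0.24, edgeR adjusted p = 0.138). It was called in the fit of the compared groups alone (edgeR adjusted p = 0.0283) and with the 72 h leaf libraries left out (edgeR adjusted p = 0.0184). OsSAPK6 at 1 h had 40.2, 46.9 and 64.4 CPM in WT and 34.2, 31.3 and 25 CPM in aoc, also without overlap, a log2 difference of -0.76 ± 0.32 (interval -1.44 to -0.09, edgeR adjusted p = 0.198), called with the 72 h leaf libraries left out (edgeR adjusted p = 0.0184). Without the 2 leaf libraries of high dehydrin level these differences were -1.17 and -0.55, and edgeR called neither. OsSAPK2 at 1 h differed by -0.64 ± 0.22 (interval -1.11 to -0.17, edgeR adjusted p = 0.116), with 1 aoc library, at 90.1 CPM, above the lowest WT library, at 87.2 CPM. At 72 h OsSAPK3 was higher in all 3 aoc libraries than in the WT libraries, by 0.55 ± 0.22 (interval 0.10 to 1.00, edgeR adjusted p = 0.195). OsSAPK9 at 72 h differed by -1.23 ± 0.50 (interval -2.29 to -0.18, edgeR adjusted p = 0.220), which without WT 72 h replicate 1, its lowest WT library, became -1.69 and was called (edgeR adjusted p = 0.0340). In root, OsSAPK1 at 1 h was lower in all 3 aoc libraries, by 0.32 ± 0.14 (interval -0.63 to -0.02, edgeR adjusted p = 0.249), and OsSAPK6 at 72 h was called without aoc 72 h replicate 1 alone (0.40, edgeR adjusted p = 0.0130).

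Whether the change from 0 h differed between the genotypes was tested as an interaction. None of the 30 root tests and none of the 30 leaf tests passed in edgeR, with 0 and 1 at an unadjusted p under 0.05, and DESeq2 called 0 and 0. These differences were called for 0.0115%, 0.00% and 0.00% of all tested identifiers at 1, 6 and 72 h in root and for 0.00%, 0.00411% and 0.00% in leaf. The share at an unadjusted p under 0.05 was not taken. The member nearest to the threshold was OsSAPK9 in leaf at 72 h, where the log2 change was 2.74 in WT and 1.01 in aoc, a difference of -1.74 ± 0.71 (interval -3.23 to -0.24, edgeR adjusted p = 0.805). For OsSAPK2, the kinase with the largest rise at 1 h in root, the difference between the genotypes' changes over the 3 hours and both tissues lay between -0.40 and 0.23 on the log2 scale, with intervals that reached from -1.06 to 0.89. Over all members the intervals reached from -1.62 to 1.36 in root and from -3.23 to 1.66 in leaf. For some members they leave room for differences as large as many of the called changes. A missing call therefore does not show that the genotypes responded alike.

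Before NaCl, members were called between the 2 tissues about as often as other identifiers in WT and less often in aoc, which was not tested. In WT, 6 of 10 members were higher and 1 lower in root than in leaf, against 71.2% of tested identifiers called, and in aoc 5 were higher, against 73.1%. The median over all tested identifiers was itself 0.23 in WT and 0.26 in aoc, and it was 0.18 and 0.20 with RLE factors and 0.08 and 0.10 with DESeq2. OsSAPK7 differed most, with 34.1, 38.8 and 42.4 CPM in root and 3.92, 3.25 and 4.23 CPM in leaf of WT, a log2 difference of 3.33 ± 0.31 (adjusted p = 1.5e-11 in edgeR). In aoc it was 3.71 ± 0.32 (edgeR adjusted p = 1.97e-12). OsSAPK3 was higher in root by 1.31 ± 0.17 in WT and 1.29 ± 0.17 in aoc, and OsSAPK2 by 1.13 ± 0.20 and 1.41 ± 0.21, with edgeR adjusted p of at most 9.41e-06. No library of one tissue overlapped with the other for these 3 members.

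OsSAPK4 was higher in root by 0.72 ± 0.15 in WT (edgeR adjusted p = 4.48e-05) and by 0.33 ± 0.15 in aoc (edgeR adjusted p = 0.0404). OsSAPK8 was higher by 0.23 ± 0.09 in each genotype (edgeR adjusted p = 0.0184 and 0.0191), near the median over all tested identifiers, 0.23 in WT and 0.26 in aoc. With RLE factors, and with DESeq2, OsSAPK8 was not called in either genotype, nor OsSAPK4 in aoc. The call of OsSAPK4 in aoc was lost in 5 of 48 fits without 1 library (edgeR adjusted p up to 0.212, without leaf aoc 0 h replicate 1) and with the 2 leaf libraries of high dehydrin level left out (edgeR adjusted p = 0.0904). OsSAPK8 in aoc was lost without those 2 libraries as well (edgeR adjusted p = 0.0823), and without 1 library in 2 of 48 fits in WT and 3 of 48 in aoc (edgeR adjusted p up to 0.0647 and 0.0923). OsSAPK9 was higher in root of WT by 1.48 ± 0.46 (edgeR adjusted p = 0.00501), and in aoc its 0.92 ± 0.46 was not called (edgeR adjusted p = 0.0705). It was called without the same 2 libraries (1.42, edgeR adjusted p = 0.0164), without leaf aoc 0 h replicate 3 alone (1.42, edgeR adjusted p = 0.0152), without leaf WT 72 h replicate 1 (edgeR adjusted p = 0.0360) and without all leaf libraries of 72 h (0.87, edgeR adjusted p = 0.0326). OsSAPK5 differed by -0.29 ± 0.14 in WT, not called (edgeR adjusted p = 0.0611), and was called lower in root with RLE factors (edgeR adjusted p = 0.0230), by DESeq2 (adjusted p = 0.0188), with the compared groups alone (edgeR adjusted p = 0.00421), without the leaf libraries of 72 h (edgeR adjusted p = 0.0108) and in 4 of 48 fits without 1 library. OsSAPK10 was called lower in root than in leaf of WT, with 3.26, 3.22 and 2.86 CPM against 5.26, 5.49 and 7.34 CPM, a log2 difference of -0.96 ± 0.29 (adjusted p = 0.00421 in edgeR), and in aoc the difference was -0.36 ± 0.29 and not called.

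The 2 tissues also differed in how several members changed, in tests that set the change within one tissue, and so within one kit, against that within the other. In WT the change differed between root and leaf for 1 member at 1 h, against 4.86% of tested identifiers, for 4 at 6 h, against 14.8%, and for 4 at 72 h, against 16.6%. In aoc it differed for 0 members at 1 h, against 7.02%, for 4 at 6 h, against 22.2%, and for 1 at 72 h, against 14.0%. At 1 h in aoc, where edgeR called 0, 5 members had an unadjusted p under 0.05 and DESeq2 called 1, OsSAPK9. The share of all tested identifiers at that unadjusted p was not taken, so these 5 members cannot be set against it. Without the 72 h leaf libraries, edgeR also called OsSAPK1 and OsSAPK6 at 1 h in WT (adjusted p = 0.0152 and 0.0142). In aoc that fit called OsSAPK1, OsSAPK6 and OsSAPK9 at 1 h (edgeR adjusted p = 0.00917, 0.0346 and 0.0210). At 6 h in aoc it added OsSAPK6 and OsSAPK9 (edgeR adjusted p = 0.00637 and 0.0352). The shares over all tested identifiers are those of the full fit. Shares in the fit without the 72 h leaf libraries were not taken, so its added calls cannot be set against all tested identifiers.

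**Figure D5:**
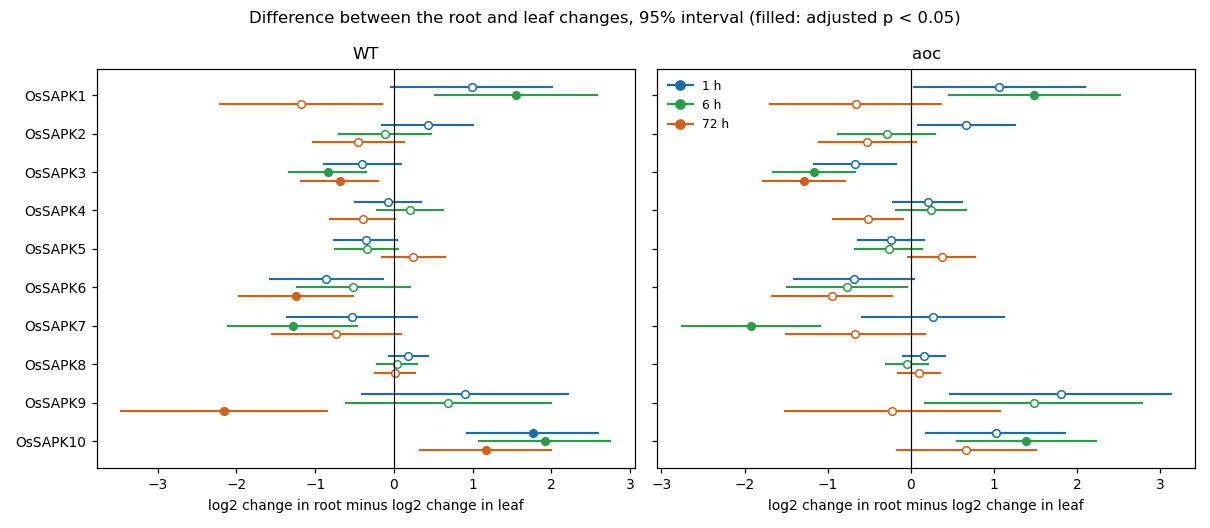
Log2 change from 0 h in root minus that in the 2nd leaf for each SAPK transcript at 1, 6 and 72 h in WT and aoc, with 95% intervals; filled points passed the adjusted threshold. In both genotypes OsSAPK10 (higher in root) and OsSAPK1 (lower in leaf) lay to the right at 6 h, and OsSAPK3 and OsSAPK7 (higher in leaf) to the left.

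The root minus leaf difference of the changes was positive for OsSAPK10, at 1.76 ± 0.41 at 1 h (edgeR adjusted p = 0.00824) and 1.92 ± 0.41 at 6 h (edgeR adjusted p = 0.00161) in WT and 1.39 ± 0.41 at 6 h in aoc (edgeR adjusted p = 0.0134). The first 2 were kept in every fit without 1 library, and the last was lost without root aoc 0 h replicate 1 or leaf aoc 0 h replicate 2 (edgeR adjusted p = 0.0552 and 0.0516). OsSAPK3 and OsSAPK7 rose more in leaf than in root at 6 h. For OsSAPK3 the difference was -0.84 ± 0.24 in WT (edgeR adjusted p = 0.0152) and -1.17 ± 0.24 in aoc (edgeR adjusted p = 0.000652), and for OsSAPK7 it was -1.28 ± 0.40 (edgeR adjusted p = 0.0273) and -1.92 ± 0.41 (edgeR adjusted p = 0.000891). Both values in aoc were kept in every fit without 1 library. In WT that of OsSAPK3 was lost without leaf WT 0 h replicate 3 (edgeR adjusted p = 0.0617), and that of OsSAPK7 in 6 of 48 such fits (edgeR adjusted p up to 0.0764, without leaf WT 0 h replicate 2).

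OsSAPK1, which was lower in leaf at 6 h while it was at or above its starting level in root, differed by 1.55 ± 0.51 in WT and 1.48 ± 0.51 in aoc (edgeR adjusted p = 0.0332 and 0.0321). These 2 calls were lost in 8 and 6 of 48 fits without 1 library (edgeR adjusted p up to 0.0838 and 0.0854), and that in aoc also without the 2 leaf libraries of high dehydrin level (edgeR adjusted p = 0.0614). At 72 h OsSAPK3 differed by -1.29 ± 0.24 in aoc (edgeR adjusted p = 0.000576), kept in every fit without 1 library and not called with the compared groups alone (edgeR adjusted p = 0.0535). In WT at 72 h the differences were -2.16 ± 0.64 for OsSAPK9 (edgeR adjusted p = 0.0199), -1.25 ± 0.35 for OsSAPK6 (edgeR adjusted p = 0.0151), -0.69 ± 0.24 for OsSAPK3 (edgeR adjusted p = 0.0462) and 1.17 ± 0.41 for OsSAPK10 (edgeR adjusted p = 0.0468). Of these, OsSAPK6 was lost without leaf WT 72 h replicate 3 (-0.77, edgeR adjusted p = 0.125), and OsSAPK9 without leaf WT 72 h replicate 2 or 3 or root WT 72 h replicate 3 (edgeR adjusted p = 0.0760, 0.0527 and 0.0619). The calls of OsSAPK3 and OsSAPK10 were lost in 27 and 28 of 48 such fits (edgeR adjusted p up to 0.145 and 0.173).

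Around the kinases, the other parts of the abscisic acid pathway were counted as lists of identifiers set from general knowledge, over the same 12 changes from 0 h. Receptor transcripts were called lower more often than higher, and phosphatase transcripts the reverse. Over these changes, 0.654% to 34.7% of all tested identifiers were called at 1 h, 24.9% to 35.6% at 6 h and 18.9% to 30.5% at 72 h. Of 96 tests on 8 receptor identifiers, 7 were called higher and 42 lower. Of 108 tests on 9 clade A phosphatases 2C, 52 were higher and 2 lower, and of 96 on 8 group A bZIP factors, 27 were higher and 4 lower. The 5 dehydrins and LEA3, downstream transcripts of the pathway, gave 17 calls in 60 tests, all higher. In WT roots at 1 h the median log2 fold change was -1.80 over the receptors, 3.48 over the phosphatases, 0.85 over the bZIP factors and 5.32 over the dehydrins and LEA3, beside 0.20 over the SAPK kinases and -0.03 over all tested identifiers. At 72 h in WT leaves, the hour and tissue of the largest OsSAPK9 change, it was -0.62, 3.42, 1.45 and 9.78, beside 0.51 over the kinases. The dehydrin median there rests on libraries at 1246, 5518 and 16280 CPM in sum, against 1.55 to 11.7 CPM at 0 h. These 2 comparisons do not stand for all 12. In aoc leaves the dehydrin and LEA3 median was -5.45 at 1 h and -5.03 at 6 h, with 0 called at each hour, from 0 h libraries at 0.377, 3.12 and 1138 CPM in sum. The phosphatase median was 0.10 in aoc leaves at 1 h and 0.35 in WT roots at 72 h.

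Likeness was taken for every pair of members over the 8 groups of a tissue, and the pairs at both ends of the ranking are named. Correlations of other pairs of genes were not taken, so how far these ends stand out was not tested. As a description over group means of log2 CPM, in which all points share the fit's libraries, the pair most alike in root was OsSAPK9 with OsSAPK10 (Pearson's r = 0.94) and the pair most opposed OsSAPK4 with OsSAPK6 (r = -0.96). In leaf the most alike were OsSAPK6 with OsSAPK7 (r = 0.84) and the most opposed OsSAPK3 with OsSAPK8 (r = -0.90). Over the group means of a tissue, OsSAPK9 had the widest span in both, 3.99-fold in root, next to 3.97-fold for OsSAPK2, and 8.16-fold in leaf. OsSAPK3 had the narrowest in root, 1.2-fold, and OsSAPK8 the narrowest in leaf, 1.34-fold.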

How the data were processed

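Read counts per gene identifier were deposited by the authors as 1 table of whole numbers for the 48 libraries, without normalization. The submitters' processing notes name fastp, HISAT2, DESeq2 and the build IRGSP-1.0. Not given in the sources used here were the counter, its strand setting, its treatment of reads shared between similar genes and the annotation, so reads shared between SAPK paralogs or with antisense transcripts cannot be told apart. Library totals ran from 28.6 M to 71.7 M, and 3 counts corresponded to 0.0391 to 0.139 CPM.

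From these counts, edgeR 4.0.16 (R 4.3.3, limma 3.58.1) fitted group means with TMM factors, its default filter on low counts by group and robust quasi-likelihood dispersions. The 24 root libraries were fitted together, as were the 24 leaf libraries, and all 48 for root against leaf, with 26195, 24317 and 27323 identifiers tested. P-values were adjusted by Benjamini-Hochberg over all tested identifiers of each of the 42 comparisons, and calls were made at 0.05. All 10 members were named in every comparison. Alternatives were RLE factors, no filter, DESeq2 1.42.0, the replicate number as a block, leaving out each library in turn, and fitting the compared groups alone. Chosen after seeing the data were leaving out 2 leaf libraries or all leaf libraries of 72 h, thinning the deepest root library, and the counts of pathway lists under alternatives. Group means for likeness used log2(CPM + 0.1). The tests were tried on simulated data. The members and lists were chosen with earlier results of these data known, and list and marker identifiers were set from general knowledge, since the table does not pair them with names.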

Additional observations from a re-analysis of the deposited data

Results flagged for a closer look

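A difference between root and leaf in the change from 0 h passed the adjusted threshold of edgeR's interaction test in 14 cases. Values are root minus leaf on the log2 scale. OsSAPK10 gave 1.76, 1.92 and 1.17 at 1, 6 and 72 h in WT and 1.39 at 6 h in aoc. OsSAPK1, which was lower at 6 h in leaf, gave 1.55 at that hour in WT and 1.48 in aoc. OsSAPK3 gave root minus leaf differences of -0.84 at 6 h and -0.69 at 72 h in WT, and of -1.17 and -1.29 in aoc. OsSAPK7 gave -1.28 at 6 h in WT and -1.92 in aoc. In WT at 72 h OsSAPK6 gave -1.25 and OsSAPK9 gave -2.16, and leaf replicates of both genotypes were farthest apart at that hour. Whether these differences between tissues themselves differed between the genotypes was not tested.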

How the results depend on the processing

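Of 89 called tests, 44 were kept under every alternative run and 45 were lost under at least 1; 59 uncalled tests were called under at least 1. Single tests were recomputed where the edgeR fit or an alternative called them. Without 1 library at a time, calls ranged from 17 to 22 (20 in the full fit) for root changes from 0 h, from 9 to 18 (13) for root steps between hours, from 12 to 20 (17) and 10 to 15 (13) for the same in leaf, from 10 to 13 (12) for root against leaf at 0 h and from 10 to 18 (14) for differences between the tissues' changes. Differences between aoc and WT gave 0 calls in each tissue, 0 to 1 without 1 library: 1 in root without aoc 72 h replicate 1 (OsSAPK6), 1 in leaf without WT 72 h replicate 1 (OsSAPK9), and 1 in leaf with the compared groups alone (OsSAPK7). Differences between the genotypes' changes stayed at 0 calls under all alternatives. The replicate block gave 24, 18, 22, 16, 12 and 14 calls in the order above, and 0 for the genotype. With the block no call was lost. Against 0 h in root it added OsSAPK7 in WT at 1 h and 6 h (edgeR adjusted p = 0.0499 and 0.0210). In aoc root it added OsSAPK10 at 1 h and OsSAPK1 at 6 h (edgeR adjusted p = 0.0479 and 0.0373). Against 0 h in WT leaf it added OsSAPK4 at 6 h and 72 h and OsSAPK9 at 6 h (edgeR adjusted p = 0.00531, 0.0200 and 0.0309). In aoc leaf it added OsSAPK4 at 72 h and OsSAPK1 at 6 h (edgeR adjusted p = 0.0344 and 0.0491). The labels do not say that a number pairs libraries. Correlations were taken between libraries of different groups in a tissue, after each identifier's group mean was removed. Those of same-numbered libraries ran from -0.16 to 0.60 in root (median 0.21) and from -0.20 to 0.79 in leaf (median 0.19). Between differently numbered libraries the medians were -0.09 and -0.10. By mean correlation, 21 of 24 root and 18 of 24 leaf libraries correlated best with their own number, a hint from the data only. DESeq2 gave 22, 17, 20, 15, 10 and 15 calls, and the compared groups alone 17, 12, 16, 11, 12 and 15. One direction turned: OsSAPK1 in aoc leaf at 72 h, 0.60 and not called, ranged without 1 library from -0.25, without aoc 72 h replicate 3, to 1.05 (at the first, edgeR adjusted p = 0.710); the cause was not tested. Fits without the 72 h leaf libraries give no count over all hours. Calls of the pathway lists ranged most for dehydrins and LEA3, 3 to 14 in leaf (6) and 7 to 20 in root (11), and for clade A phosphatases in leaf, 12 to 29 (19). The lowest member count of 54 lay above the floor of 3 counts, and replicates were farthest apart in leaf at 72 h.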

Other observations

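In root at 72 h, replicate 2 was the highest library for OsSAPK9 and for OsSAPK10 in both genotypes. OsSAPK9 was at 36.1 CPM in WT, where the other libraries were at 18.6 and 12.7 CPM, and at 43 CPM in aoc, where they were at 16.7 and 14.6 CPM. OsSAPK10 was at 8.67 CPM in WT against 5.41 and 4.64 CPM, and at 9.08 CPM in aoc against 3.02 and 3.81 CPM. The summed level of dehydrins and LEA3 was 966 CPM in replicate 2 of aoc, against 46.1 and 44.4 CPM in the others. In WT it was 2.42 CPM in replicate 2, against 6.45 and 8.88 CPM.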
